A study of Mus musculus with 24 samples.

Results

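The miR-199 and miR-214 microRNAs were examined as 5 mature strands, mmu-miR-199a-5p, mmu-miR-199a-3p, mmu-miR-199b-5p, mmu-miR-214-3p and mmu-miR-214-5p (written below without the species prefix), taken by exact target name from the 696 mouse miRNAs on each of 24 one-colour Agilent arrays. The RNA came from C57BL/6J mice aged 34 days that had worn a frosted diffuser over the right eye for 10 days from postnatal day 24. Such form deprivation blurs the image and is used to make the eye grow too long (myopia), and the uncovered left eye was the control. The arrays covered sclera (3 titled myopia, 3 titled control), whole eye (6 myopia, 6 control) and retina (3 titled myopia, 3 titled control). All groups share strain and age, and none of the controls came from an animal without a diffuser, since both eyes belonged to the 15 mice of the series. Whole-eye RNA is labelled as coming from 6 mice and retina and sclera RNA from 9 each. Whether an array held 1 animal or a pool is not stated, so p-values measure only the spread between these samples, and that spread may be technical. For retina and sclera the sample titles name the arms the opposite way round from the source name, phenotype and description, so the direction of every arm difference in those tissues is unsettled and "titled" is kept in the names of their groups. For whole eye the title, source name and phenotype give the same arm, while the description gives the other.

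A miRNA hairpin is cut into a duplex whose 5p and 3p strands can each be loaded into Argonaute, and the loaded strand finds its targets mainly through its seed, bases 2 to 8. The miR-199a-2 and miR-214 hairpins lie together within Dnm3os, a noncoding transcript that runs antisense to the dynamin gene Dnm3 and is known for its expression in mesenchyme, and the miR-199b and miR-199a-1 hairpins lie in the same antisense arrangement within the dynamin genes Dnm1 and Dnm2. Members of the group are widely used as markers of fibroblasts and other connective tissue cells, the cells that build the collagen coat of the sclera, and are known for roles in skeletal development and fibrosis. miR-214-3p is the strand of its hairpin usually studied, with Ezh2 among its known targets, and miR-214-5p is its partner strand.

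The mature sequences are shown because the group holds strands with different seeds and a 3p product shared by hairpins at different places. Of the 5 members, 4 had a mature sequence in the RefSeq table (GRCm38.p6), and their seeds are in capitals.
miR-199a-5p: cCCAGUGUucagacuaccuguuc
miR-199a-3p: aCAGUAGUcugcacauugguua
miR-214-3p: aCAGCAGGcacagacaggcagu
miR-214-5p: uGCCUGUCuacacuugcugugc
The 4 seeds all differ. The RefSeq mature miR-199b-3p has the same 22 bases as miR-199a-3p, and the files map the miR-199a-3p probes to 3 genomic places, so that signal sums the products of all 3 miR-199 hairpins. miR-199b-5p is named without its mature sequence.

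The probes are shown because the results on miR-214-5p differ by probe length. Each probe of the 4 members with a mature sequence is complementary to the 3′ end of its miRNA, and the bases that a longer probe adds to the shortest are in capitals. miR-214-5p had 4 probes with 5 spots each, at chr1:164153533-164153549 (mm9, the build of the files) for the longest, while the other members had 2 probes with 10 spots each. The shortest and the longest miR-214-5p probes and the longer miR-214-3p probe (chr1:164153578-164153590, mm9) read as follows.
miR-214-5p, 14 bases: gcacagcaagtgta
miR-214-5p, 17 bases: gcacagcaagtgtaGAC
miR-214-3p, 13 bases: actgcctgtctgT
The probes of miR-199a-5p (chromosome 1, and a second place for the other hairpin) and miR-199b-5p (chr2:32174007-32174027, mm9) differed by the substitution G14A over the 19 bases compared, counted from 1 at the probe's 5′ end with the miR-199a-5p base first. That base is in capitals.
miR-199a-5p, 19 bases: gaacaggtagtctGaacac
miR-199b-5p, 21 bases: gaacaggtagtctAaacactg
With only this base between them, how far each signal includes the other miRNA was not tested.

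Between 274 and 401 miRNAs were detected per array by the scanner software's own call, and no spot was saturated. Levels are log2 of the summed probe signal divided by the array's 75th percentile, and a member's level is not set against another member's, since probes differ in brightness. The 8 neural retina miRNAs listed for checking the dissection, among them miR-124-3p and miR-9-5p, were all higher in retina than in sclera, with summed log2 levels of 1.62 to 4.05 on the 6 sclera arrays and 7.62 to 7.88 on the 6 retina arrays. Retina titled control replicate 3 stood apart in the members and carried the highest cornea and lens sum of the retina arrays, so results that rest on it are given with and without it.

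Both miR-199a strands, miR-199b-5p and miR-214-3p formed a scleral group. Each was highest in sclera, intermediate in whole eye and lowest in retina, with no overlap between the arrays of the 3 tissues. Of all miRNAs tested, 25.4% had every sclera array above every retina array, 20% every sclera array above every whole-eye array and 16.9% every whole-eye array above every retina array. miR-199a-3p, known to act on mTOR and MET transcripts, gave signals of 13484, 11369 and 10091 in sclera titled myopia and 12460, 16226 and 5149 in sclera titled control. In whole eye its signal ran over 1067, 2109 and 2859 (lowest, median, highest of 6) in myopia and 1128, 2124 and 2903 in control. In retina it was 64.1, 92.2 and 67.4 in titled myopia and 55.2, 74.9 and 297 in titled control. The arms overlapped within each tissue on this scale, and the single high retina value belonged to titled control replicate 3.

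**Figure D1:**
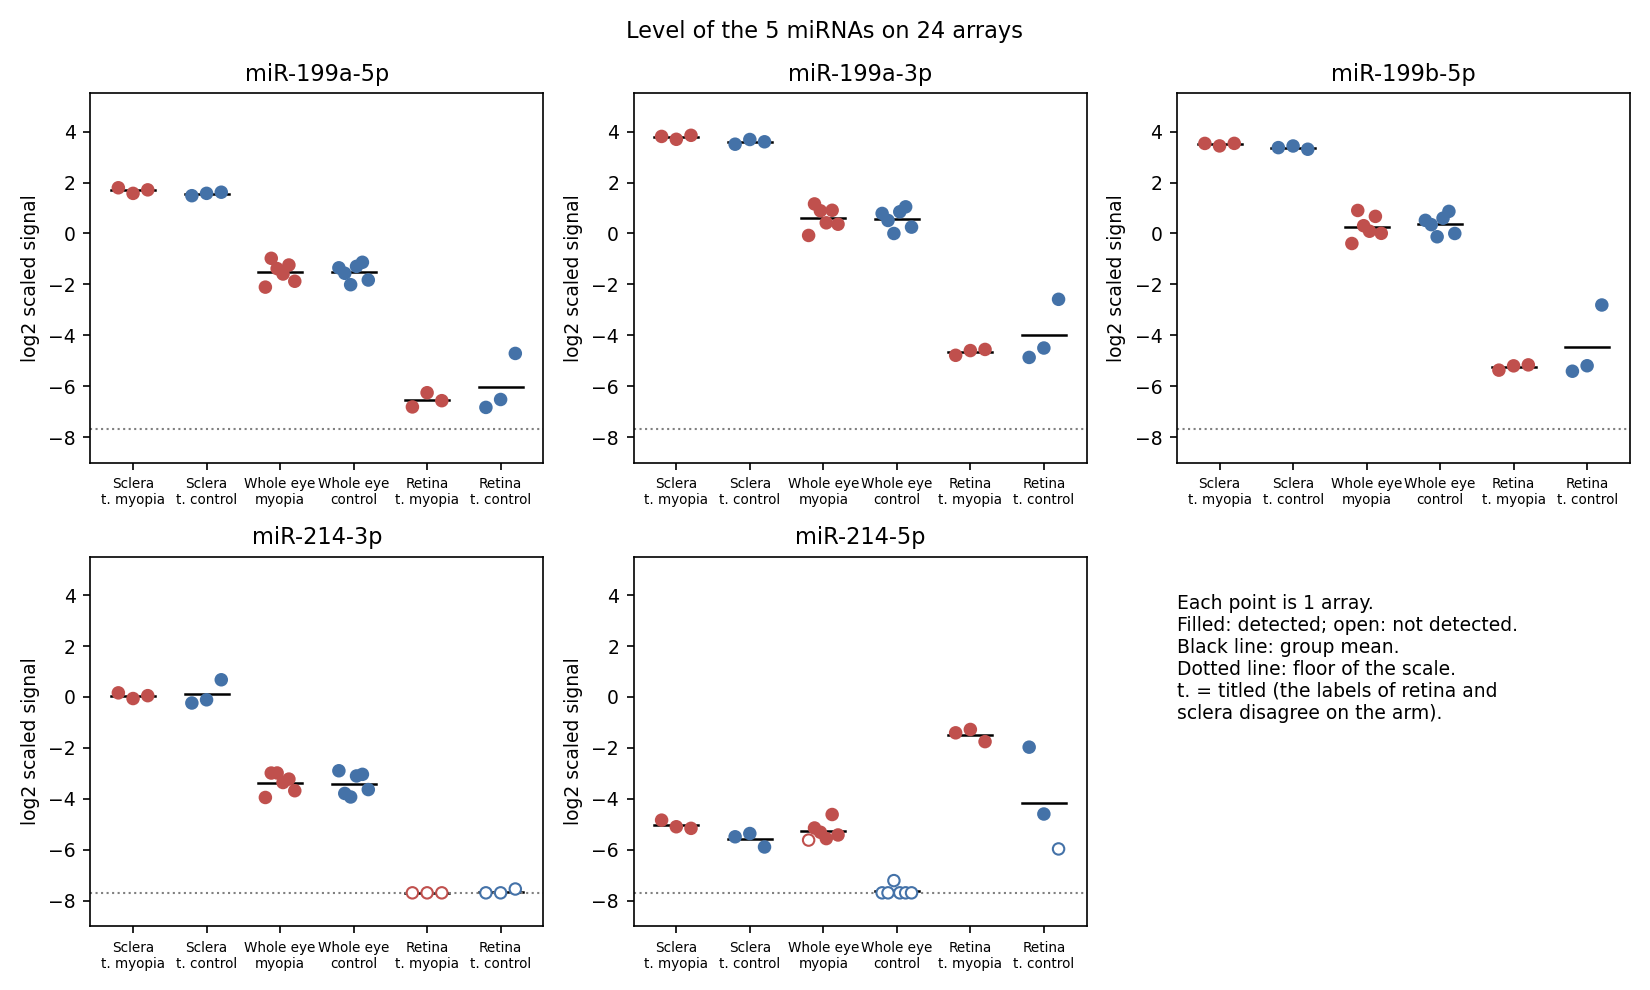
Log2 scaled signal of the 5 miRNAs (vertical axes) on each array of the 6 groups (horizontal axes, t. for titled), with filled points detected, open points not detected, a black line at each group mean and a dotted line at the floor of -7.69. The first 4 miRNAs step down from sclera to whole eye to retina, while miR-214-5p is highest in retina and lies at or near the floor on all 6 whole-eye control arrays.

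On the scale of all 24 arrays, miR-199a-3p averaged 3.70 ± 0.13 in sclera (SD, n = 6), 0.59 ± 0.41 in whole eye (n = 12) and -4.32 ± 0.86 in retina (n = 6). It was 8.01 higher on the log2 scale in sclera than in retina (258-fold, SE 0.29, adjusted p = 2.99e-16) and 3.10 higher in sclera than in whole eye (8.59-fold, SE 0.25, adjusted p = 3.68e-10). miR-199a-5p, its partner strand, averaged 1.63 ± 0.11 in sclera, -1.53 ± 0.36 in whole eye and -6.28 ± 0.80 in retina. Its difference was 7.91 between sclera and retina (241-fold, SE 0.27) and 3.16 between sclera and whole eye (SE 0.23). miR-199b-5p, which comes from another hairpin on another chromosome, averaged 3.44 ± 0.09, 0.32 ± 0.41 and -4.86 ± 1.01 in the same tissues, with differences of 8.30 (315-fold, SE 0.32) and 3.12 (SE 0.28). The whole-eye levels of the trio lay 4.76 to 5.17 above those of retina. All 9 of these differences passed the threshold, and the direction was the same within each of the 3 slides, where the sclera-to-retina differences of the trio ran over 7.31 to 9.14.

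miR-214-3p followed the same order but was not detected on any of the 6 retina arrays. Its signal was 1073, 838 and 722 in sclera titled myopia and 930, 1163 and 677 in sclera titled control. In whole eye it ran over 72.9, 140 and 161 in myopia and 74.1, 142 and 187 in control. In retina it lay at -3.80, 0.81 and -3.93 in titled myopia and -4.21, -1.68 and 9.57 in titled control, and 0 of the 120 retina spots of its probes were well above background, against 120 of 120 in sclera. The arms overlapped in whole eye and in sclera. Because retina holds only a bound, miR-214-3p was at least 215-fold higher in sclera and at least 19.5-fold higher in whole eye than in retina (adjusted p = 6.96e-19 and 9.75e-15), where the retina mean uses on each array the highest of the lowest detected signal, the floor and the miRNA's own signal. Between sclera and whole eye, both measured, it was 3.46 higher on the log2 scale in sclera (SE 0.17, adjusted p = 1.09e-13). Of the 6 retina values of miR-214-3p, 5 lay at the floor. They understate the spread, pooled over all groups, behind these errors and p-values.

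These steps stood on a background in which most miRNAs differed between tissues. Of 426 miRNAs tested, 89.2% differed between sclera and retina (30.5% higher in sclera, 58.7% lower), 70.9% between sclera and whole eye (30.8% higher, 40.1% lower) and 88% between whole eye and retina (23% higher, 65% lower). All 5 members were called in each of the 3 comparisons, so their count says little, and the size of the difference is what sets them beside the median over all tested of -0.81 for sclera minus retina and -0.15 for sclera minus whole eye. In RNA from bulk tissue, a smaller number of cells of a type and less of the miRNA per cell cannot be told apart.

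Most other miRNAs of connective tissue were also higher in sclera, and some were lower. Of 23 tested members of a list of 27 fibroblast and mesenchymal miRNAs on the array, 18 were higher and 5 lower in sclera than in retina, with a median of 1.98, and 19 were higher and 3 lower in sclera than in whole eye, with a median of 1.47. Between whole eye and retina 12 were higher and 8 lower in whole eye, with a median of 0.20. The summed log2 level of the list was 5.99 to 6.35 in sclera, 5.01 to 5.27 in whole eye and 5.68 to 5.86 in retina. By this sum, in which the brightest miRNAs weigh most, the order over the tissues was not that of the 4 scleral members. The median difference of 0.20 put whole eye above retina instead. miR-152-3p, known to act on Dnmt1, was 4.43 higher in sclera than in retina, miR-455-3p, known from cartilage, 4.12 higher and miR-10b-5p, encoded in a Hox cluster, 3.48 higher. The 5 that were lower in sclera included all 3 members of the miR-29 family, known for repressing collagen transcripts, at -0.34 for miR-29a-3p, -1.76 for miR-29b-3p and -2.80 for miR-29c-3p. Other tissues' miRNAs moved with this contrast too. Of the skeletal muscle list 4 of 5 were higher and 1 lower in sclera than in retina (median 4.39), with summed levels of 1.90 to 2.83 in sclera and -1.75 to -1.03 in retina. Of the leukocyte list 3 of 4 were higher, of the cornea and lens list 8 of 8, of the endothelial list 2 of 2, of the smooth muscle and pericyte list 2 of 2 and of the erythrocyte list 1 of 2, while both pigment epithelium miRNAs were lower. The part of these tissues in the members' levels was not tested.

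miR-214-5p was highest in retina, unlike the other members. Its signal was 33.5, 25.5 and 19.5 in sclera titled myopia and 24.3, 30.5 and 7.13 in sclera titled control. In whole eye it ran over 22.8, 31.9 and 52.5 in myopia and -2.12, 1.198 and 7.60 in control. In retina it was 666, 923 and 470 in titled myopia and 411, 70.0 and 28.5 in titled control. Retina held both the highest signals and the widest spread. The strand was detected on all 6 sclera arrays, 5 of 6 whole-eye myopia arrays and 5 of 6 retina arrays, and on none of the 6 whole-eye control arrays.

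Ordered by mean log2 level on the scale of all arrays, the groups ran from retina titled myopia (-1.48 ± 0.25) through retina titled control (-4.18 ± 2.03), sclera titled myopia (-5.03 ± 0.17), whole-eye myopia (-5.28 ± 0.37) and sclera titled control (-5.58 ± 0.28) down to whole-eye control (-7.61 ± 0.20, 5 of 6 at the floor). The arrays of sclera titled myopia, whole-eye myopia and sclera titled control overlapped from each neighbour to the next, and retina titled control spanned -5.97 to -1.97 and so overlapped all 3. Retina titled myopia lay above every array of the other groups and whole-eye control below every array of the other groups, although at or near the floor. The share of all miRNAs with such separations was not computed, so they are not read as particular to miR-214-5p. Of all miRNAs tested, 89.2% differed between sclera and retina and 88% between whole eye and retina. Sclera lay 2.48 below retina (SE 0.40, adjusted p = 7.57e-06) and whole eye 3.62 below retina (SE 0.35, adjusted p = 5.60e-09), where 5 of 12 whole-eye arrays detected the strand and 5 lay at the floor, so that the size of any difference from whole eye depends on the floor. The titled myopia arrays alone gave -3.55 for sclera minus retina and the titled control arrays alone -1.40, and within the 3 slides the difference was -3.18, -2.11 and -1.65. With normexp background correction, which adds an offset of 50 units to each signal, the direction turned, at 0.30 (adjusted p = 0.405). Sclera lay 1.14 above whole eye (SE 0.35, adjusted p = 0.00600). Over the myopia arrays alone the difference was 0.25 (adjusted p = 0.703). Over the control arrays alone, with no whole-eye array detected, sclera was at least 3.12-fold higher in this processing (adjusted p = 0.00116). The median signal of the bright corner spots, control features of the array, was 105 to 168 in sclera and 192 to 556 in retina (exact permutation test, p = 0.00216), and its part in the tissue differences of miR-214-5p was not tested.

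The log2 difference of 5p minus 3p of miR-199a lay between -2.27 and -1.66 on all 24 arrays, with means of -2.07 ± 0.07 in sclera, -2.12 ± 0.08 in whole eye and -1.97 ± 0.16 in retina while the log2 level of miR-199a-3p ran from -4.87 to 3.86. Sclera minus retina was -0.10 (adjusted p = 0.198) and whole-eye myopia minus control -0.04 (SE 0.06, adjusted p = 0.821). The tissue difference depended on the processing and passed the threshold with normexp (-1.55), with the series value table (-1.10), with quantile normalisation (-0.41) and on slide 2 alone (-0.28). The sign of such a difference carries the brightness of the probes and is not read as which strand was more abundant.

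The balance of miR-214 differed between sclera and retina and between the whole-eye arms, each time with a strand mostly at the floor in 1 group. Arm differences of the balance within retina and sclera were not tested. Its 5p minus 3p difference was -5.001, -5.04 and -5.21 in sclera titled myopia and -5.26, -5.25 and -6.57 in sclera titled control. In whole eye it ran over -2.33, -1.95 and -1.39 in myopia and -4.80, -4.33 and -3.29 in control, with 5p at the floor on 5 of 6 control arrays. In retina it was 6.29, 6.42 and 5.94 in titled myopia and 5.72, 3.10 and 1.57 in titled control. Sclera minus retina was -10.23 (SE 0.46, adjusted p = 4.81e-14), the lowest of 74 strand pairs tested, of which 71.6% were called. The next lowest were miR-200a at -7.72, miR-141 at -6.58, miR-384 at -4.14 and miR-302c at -3.76, and the largest rise was 3.53 for miR-15a. In retina the 3p strand lay at the floor on 5 of 6 arrays, so the miR-214 difference there depends on the floor. Over the alternatives that tested it, sclera minus retina for miR-214 ran from -11.90 to -3.08.

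Whole-eye myopia minus control was 1.83 for the miR-214 strand difference (SE 0.21, adjusted p = 9.51e-05), the highest of 47 pairs, of which 8.51% were called. The other called pairs were miR-338 (1.08), miR-342 (0.31) and miR-124 (-0.17). The 5p strand lay at the floor on 5 of the 6 control arrays, so this size too depends on the floor. Within slide 2 it was 1.83 and within slide 3 it was 1.35, and neither passed the threshold among 4 arrays (adjusted p = 0.123 and 0.251). On slide 1 it was not tested. With normexp background correction over all whole-eye arrays it was 0.13 and not called.

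**Figure D2:**
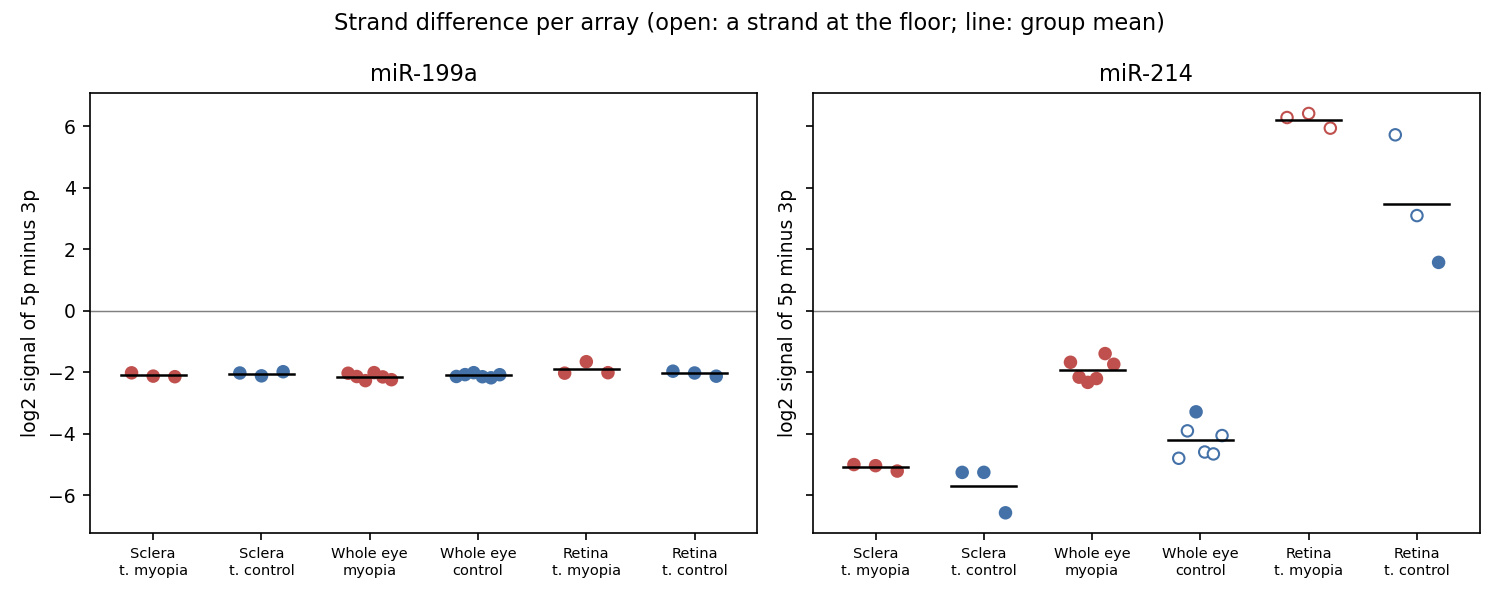
Log2 signal of the 5p strand minus that of the 3p strand (vertical axis) on each array of the 6 groups for miR-199a (left) and miR-214 (right), with open points where a strand lay at the floor and a line at each group mean. The miR-199a points stay between -2.27 and -1.66, and the miR-214 points run from -6.57 in sclera to 6.42 in retina.

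The 4 miR-214-5p probes behaved differently in the tissues. In sclera only the 17-base probe carried signal, at 31.0, 24.7 and 19.6 in titled myopia and 27.4, 31.6 and 10.3 in titled control, while the 14-, 15- and 16-base probes lay between -3.79 and 2.97 on all 6 arrays. Of 30 sclera spots of the longest probe 27 were well above background, and 0 of 30 were for each of the shorter 3. In retina the probes were alike within an array, from 220 for the shortest to 238 for the longest in titled myopia replicate 2 and from 92.7 to 115 in titled control replicate 1. In retina titled control replicate 3 they were all low, from 4.58 to 9.18, and no spot was well above background.

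The share of the summed signal that the longest probe gave was 91.7% ± 4.9 in sclera (SD, n = 6), 35.7% ± 4.5 in whole-eye myopia (n = 6) and 27.0% ± 2.9 in retina (n = 6). In whole-eye myopia only 3 of 120 spots were well above background, so its share comes from signals near background. In whole-eye control, with 0 of 120 such spots, the share was 81.0% ± 19.1 (n = 6) and was not tested. The longest probe exceeded the mean of the others by 4.54 ± 1.61 units in whole-eye myopia and 4.81 ± 1.56 in control. Sclera, from 85.6% to 100% as probes below 0 count as 0, did not overlap whole-eye myopia or retina. Whole-eye myopia (28.8% to 42.0%) and retina (23.7% to 32.2%) overlapped in part. Exact permutation tests (two-sided) gave p = 0.00216 for sclera against each of these groups and 0.00433 for whole-eye myopia against retina (adjusted over 3 comparisons 0.00325, 0.00325 and 0.00433). Among the 263 miRNAs with 4 probes, 39 were detected on at least 5 of 6 sclera arrays, with a median longest-probe share of 47.1%, and miR-214-5p with a median of 91.8% had 37 below it and 1 above. In retina 73 such miRNAs had a median share of 41.2%, and miR-214-5p at 26.3% had 12 below it and 60 above. In whole-eye myopia 52 had a median of 37.9%, and miR-214-5p lay at 36.4%, with 23 below it and 28 above.

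With the 17-base probe alone, the sclera minus retina difference of miR-214-5p was -0.48 (adjusted p = 0.226), against -2.81 to -2.94 with each of the other probes alone. The shorter probes had no sclera spot well above background, so their values set retina against the floor and their size depends on it. Sclera and whole eye could not be compared by the shorter probes, which had 0 of 30 sclera spots each and 0, 0 and 1 of 60 whole-eye spots well above background. The 17-base probe averaged 24.1 ± 8.1 in sclera (SD, n = 6) and 8.01 ± 4.47 in whole eye (n = 12), with 27 of 30 and 2 of 60 spots well above background. The level of this strand in sclera rested on 1 of its 4 probes. In the other members the ratio of the longer to the shorter probe was 2.07 ± 0.03 in sclera and 2.09 ± 0.06 in whole eye for miR-199a-3p, 7.17 ± 0.10 and 7.17 ± 0.17 for miR-199a-5p, 2.68 ± 0.07 and 2.66 ± 0.18 for miR-199b-5p, and 3.15 ± 0.14 and 3.31 ± 0.15 for miR-214-3p (SD, n = 6 and 12). In retina, where these members were dim, it was 2.18 ± 0.10 for miR-199a-3p and 3.06 ± 0.24 for miR-199b-5p (SD, n = 6), ran from 6.14 to 18.7 for miR-199a-5p, and could be formed on 1 array only for miR-214-3p.

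**Figure D3:**
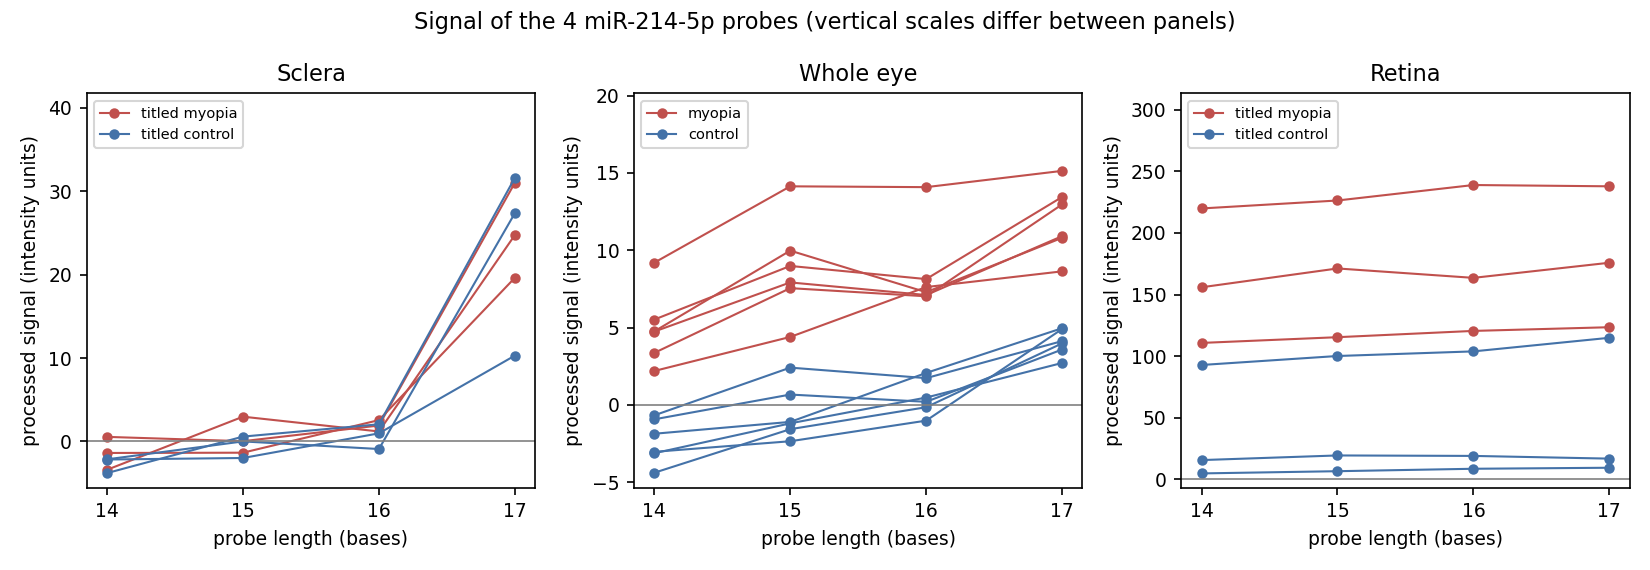
Processed signal (vertical axes, intensity units, with a different scale in each panel) of the 14-, 15-, 16- and 17-base miR-214-5p probes (horizontal axes), with 1 line for each array in sclera, whole eye and retina, red for myopia and blue for control arms. In sclera only the 17-base probe rises above 3, in whole eye each probe is higher on every myopia array than on every control array, and in retina the lines are nearly flat.

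The whole-eye arms set deprived eyes against the fellow control eyes. Of the members only miR-214-5p was called there, higher in myopia, among 341 miRNAs tested, of which 10.3% were called. It met the detection rule for testing through the myopia arm alone. With 5 control values at the floor, its p is not ranked against those of other miRNAs. Since no control array was detected, the rise in this processing is a bound of at least 3.57-fold. The fitted log2 difference was 1.95 (SE 0.12, adjusted p = 7.25e-07), and the 5 control values at the floor understate the spread behind its error. Each of the 6 myopia arrays exceeded each of the 6 control arrays, as for 9.68% of miRNAs tested, and 5 of the 6 myopia arrays were detected. Within slides 2 and 3 the difference was 2.16 and 1.68 (adjusted p = 0.00854 and 0.0207), and on slide 1 it was not tested because too few arrays detected it. With normexp background correction the difference was 0.18 and not called (adjusted p = 0.255). By the description in the labels, which names the other arm, this would be a fall.

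The signals behind this call were small. The 4 probes, from shortest to longest, averaged 4.96 ± 2.39, 8.83 ± 3.21, 8.54 ± 2.74 and 11.98 ± 2.31 in myopia (SD, n = 6) and -2.34 ± 1.43, -0.52 ± 1.75, 0.55 ± 1.16 and 4.04 ± 0.85 in control (n = 6). On these unscaled signals every myopia array exceeded every control array at each probe (exact permutation test, p = 0.00216, adjusted over 12 probes of the 5 members 0.00649). That p is the smallest the test can give for 6 arrays against 6. The differences of 7.30, 9.35, 7.99 and 7.94 units were alike across the probes. The share of all probes on the array that separate the arms was not computed, so the separation is not read as particular to miR-214-5p. On the scaled level, with the floor set for summed signals, the 14-, 15- and 16-base probes alone were not called (limma, 0.004, 0.13 and 0.11, adjusted p = 0.942, 0.447 and 0.565). The 17-base probe alone gave 0.46 (limma, adjusted p = 0.00404), against 1.95 for the summed probes. The 8 probes of the other members gave p between 0.623 and 0.965 by the same exact test. Of the 120 miR-214-5p spots on the myopia arrays 3 were well above background, and of the 120 on the control arrays none was. Signals of the bright corner control spots, which are not probes for a miRNA, also separated the arms, with 237 to 497 on the 6 myopia arrays and 123 to 220 on the 6 control arrays (exact p = 0.00216). Negative control spots went the other way, at 0.76 to 2.36 on the myopia arrays and 2.35 to 3.92 on the control arrays (exact p = 0.00649). Position on the slide was also tied to arm and tissue, and the part of either in the miR-214-5p call was not tested.

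The other 4 members overlapped between the whole-eye arms. Their fitted differences were 0.12 for miR-199a-3p (95% interval -0.35 to 0.60, adjusted p = 0.786), 0.09 for miR-199a-5p (-0.33 to 0.51, adjusted p = 0.839), -0.02 for miR-199b-5p (-0.48 to 0.44, adjusted p = 0.958) and 0.12 for miR-214-3p (-0.36 to 0.60, adjusted p = 0.796). On slide 1 the 4 differences ran from -0.59 to -0.41 and on slides 2 and 3 from 0.10 to 0.38, with none past the threshold. They varied together over the 12 whole-eye arrays. With miR-199a-3p, miR-199a-5p had Pearson's r = 0.98 and Spearman's rho = 0.99, miR-199b-5p 0.95 and 0.88, and miR-214-3p 0.90 and 0.82. The permutation p of r was 2e-05, the smallest that the resamples can give, for miR-199a-5p, 4e-05 for miR-199b-5p and 0.0003 for miR-214-3p, and adjusted over 4 relations 8e-05, 8e-05 and 0.0004. Without the 2 arrays farthest from the median, r was 0.97, 0.92 and 0.84. The levels on an array share its scaling, and the share of all miRNAs that correlate as strongly with miR-199a-3p was not computed. For miR-214-5p, the other of the 4 relations, no relation is given, since none of the 6 control arrays detected it and 5 of them shared the floor.

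**Figure D4:**
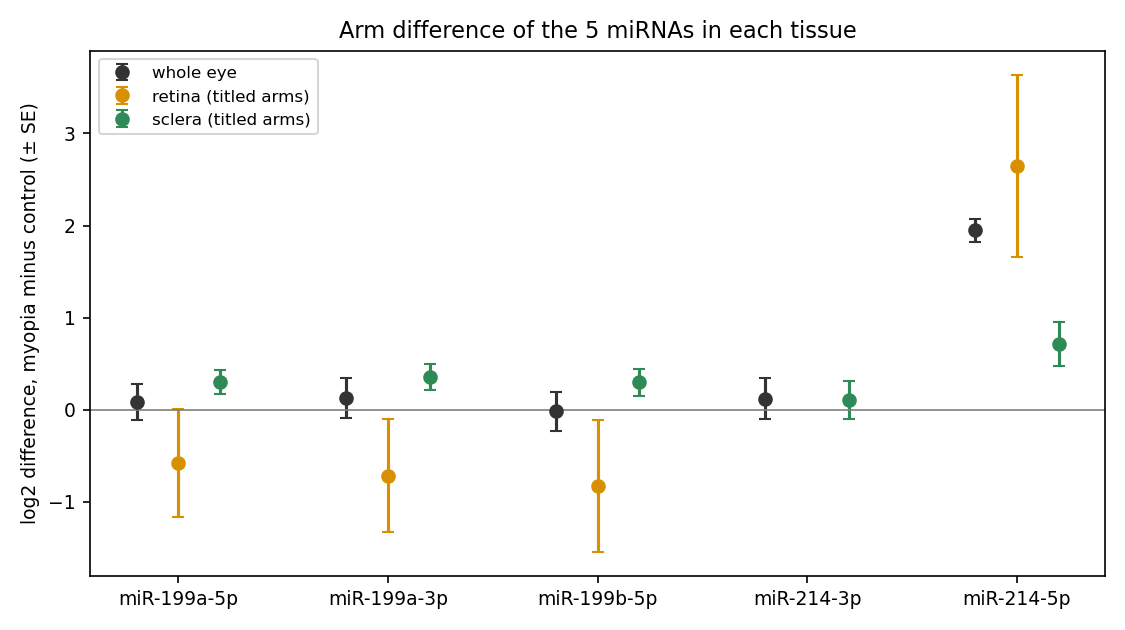
Fitted log2 difference of myopia minus control (vertical axis, points) with its SE (bars) for each of the 5 miRNAs in whole eye, retina and sclera, where retina and sclera arms follow the titles and miR-214-3p was not tested in retina. Of the points shown, miR-214-5p in whole eye at 1.95 is the one past the threshold.

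In retina none of the 396 miRNAs tested passed the adjusted threshold (limma; 5.05% had an unadjusted p under 0.05), so 0 of the 4 members tested did. miR-214-5p was 2.65 higher in titled myopia (SE 0.99, unadjusted p = 0.0413, adjusted p = 0.537), and all 3 titled myopia arrays lay above all 3 titled control arrays, as for 8.33% of miRNAs tested. Within slides 1, 2 and 3, with 1 array of each arm and no test, it was 0.59, 3.18 and 4.11. Leaving out titled control replicate 1, the control with the highest miR-214-5p, gave 3.64 (adjusted p = 0.0243), and leaving out replicate 3 gave 1.69 (adjusted p = 0.597). With arrays weighted by their fit it was 3.14 (adjusted p = 0.0268). The median signals of the bright corner spots on the same arrays were 473, 556 and 370 in titled myopia and 448, 192 and 253 in titled control, and their part in this difference was not tested.

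In retina the miR-199 strands did not pass the threshold, with titled myopia minus titled control at -0.72 for miR-199a-3p, -0.58 for miR-199a-5p and -0.83 for miR-199b-5p (adjusted p = 0.823, 0.826 and 0.823). These differences rested on titled control replicate 3, where miR-199b-5p gave a signal of 255 against 37.9 and 46.2 on the other titled control arrays and 42.8, 60.8 and 44.3 in titled myopia. Without it they were -0.08, 0.01 and -0.06, and on slide 3, which holds it, -2.07, -1.96 and -2.46. On that array miR-214-5p was the lowest of the retina arrays, at 28.5 and not detected, and the summed log2 level of the cornea and lens miRNAs was 2.20, against -0.67, -0.82 and -0.79 in titled myopia and -2.80 and 0.44 on the other titled control arrays. Its neural retina sum of 7.88 was the highest of the 6, and its skeletal muscle sum was -1.03, against -1.75 to -1.22 on the others. The part of other tissue in that array was not tested.

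In sclera none of the 311 miRNAs tested passed the threshold (limma; 2.25% had an unadjusted p under 0.05). All 3 titled myopia arrays lay above all 3 titled control arrays for miR-199a-3p, miR-199a-5p, miR-199b-5p and miR-214-5p on the scale of the sclera fit, as for 9.65% of miRNAs tested. The differences were 0.35, 0.30, 0.30 and 0.72 (SE 0.14, 0.13, 0.15 and 0.24; adjusted p = 0.887 each), and miR-214-3p overlapped at 0.11 (adjusted p = 0.999). Titled control replicate 3 had the lowest signals of the miR-199 strands among the sclera arrays, and without it the differences were 0.21, 0.19, 0.13 and 0.42 for the 4 and 0.25 for miR-214-3p. Within slide 2, with 1 array of each arm, they were 0.02, 0.01, 0.02 and 0.28, and miR-214-3p was 0.53 on slide 1 and -0.38 on slide 3. The summed neural retina level was 1.62 on titled control replicate 3, the lowest of the sclera arrays, and the erythrocyte and endothelial sums also separated the arms, at 0.19 to 0.32 and 1.78 to 1.89 in titled myopia against 0.00 to 0.04 and 1.96 to 2.27 in titled control. Their part in these differences was not tested.

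Whether the arm difference itself differed between tissues was tested over all 24 arrays, and no member passed. For miR-214-5p, whole eye minus sclera was 1.78 (SE 0.69, adjusted p = 0.197), retina minus sclera 2.15 (SE 0.80, adjusted p = 0.122) and whole eye minus retina -0.37 (SE 0.69, adjusted p = 1). In these 3 tests 2.35%, 1.64% and 1.17% of 426 miRNAs passed, and 15.5%, 17.1% and 6.81% had an unadjusted p under 0.05. With retina and sclera arms taken from the phenotype field instead of the titles, the whole eye minus retina value became 5.03 (adjusted p = 8.44e-05). Without retina titled control replicate 1 miR-214-5p passed in all 3, at 1.74, 3.25 and -1.51.

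Over the 24 arrays, which fall into 3 tissues and share their scaling, the miRNAs whose level was most like that of miR-199a-3p outside the group were miR-133b-3p (Pearson's r = 0.981), miR-143-3p (0.981), miR-223-3p (0.981), miR-133a-3p (0.978) and miR-145-5p (0.975). Within the group, r with miR-199a-3p was 0.999 for miR-199a-5p, 0.999 for miR-199b-5p, 0.986 for miR-214-3p and -0.58 for miR-214-5p. miR-133a-3p and miR-133b-3p are known from skeletal muscle, miR-143-3p and miR-145-5p from smooth muscle and miR-223-3p from myeloid cells. The miRNAs most like miR-214-5p were miR-3072-5p (0.926), miR-539-5p (0.904), miR-18b-5p (0.898), miR-465b-5p (0.894) and miR-291a-3p (0.889).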

How the data were processed

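Per the file headers, Agilent Feature Extraction 11.0.1.1 wrote the deposited scanner output, in which each spot has an intensity with its background already subtracted and each miRNA a detection flag. A deposited value table of the whole series, on a log2 scale whose normalisation no source here states (column medians 3.18 to 4.07), was an alternative only.

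For each miRNA, spots not called outliers were averaged by probe and the probes added up. Sums were scaled to the 75th percentile of the array, taken over the miRNAs that every array in that fit detected. Values below a floor (the lowest detected signal, as its median across arrays) were set to it before log2 was taken. Testing needed detection on 2 of every 3 arrays in some group. Arms were compared within a tissue, and tissues and differences of arm effects over all 24 arrays, with two-sided tests by lmFit and eBayes of limma 3.58.1 in R 4.3.3 (95% intervals from its moderated degrees of freedom), Benjamini-Hochberg adjustment over all miRNAs tested and a threshold of 0.05. Single values had exact permutation tests, and correlations used 100000 resamples in scipy 1.17.1 (Python 3.11.15). On simulated data of 341 miRNAs the whole-eye test found 29 of 30 changes of 1 and 30 of 30 changes of 2 on the log2 scale. The number of arrays limits the precision.

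Besides the members, the text names the 5 miRNAs most alike to miR-199a-3p and to miR-214-5p, up to 6 examples of a list and up to 5 strand changes each way. The members and lists were chosen with earlier results of these data known. The number of per-sample columns left unmapped was 0. The closing section gives the alternatives.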

Additional observations from a re-analysis of the deposited data

Results flagged for a closer look

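In the whole-eye control group 1 value of miR-214-5p lay far from the others, with a gap to its nearest neighbour divided by the range of 1. The value was -6.57 for replicate 3, against -6.58 on the other 5 arrays, which all lay at the floor, so the gap on the log2 scale was small and the array was not detected either. With 5 values tied at the floor the ratio is 1 for any other value above it, so this flag follows from the floor. Levels of the 5 members, 2 strand differences and 2 kinds of control spot were screened in both whole-eye arms, 18 sets of 6 arrays in all. Chance flags about 1 in 20 sets, a rate that does not apply to values tied at the floor.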

How the results depend on the processing

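Results are given here as the number of members called. In whole eye, 1 of 5 was called, and 0 with normexp background (miR-214-5p 0.18, adjusted p = 0.255; the method adds an offset of 50 units), 0 on slide 1 alone and 0 among miRNAs detected on every array, where miR-214-5p is not tested. The whole-eye strand count of 1 became 0 with normexp (miR-214 0.13), on each slide alone and among miRNAs detected on every array. In retina 0 became 1 with array weights. The 3 tissue comparisons each went from 5 to 3 among miRNAs detected on every array, where only 3 members remain. Sclera minus retina of miR-214-5p turned to 0.30 with normexp (adjusted p = 0.405). With the 14-, 15- or 16-base probe alone, sclera minus whole eye of miR-214-5p came out at -0.047, -0.23 and -0.20, which gives no direction, as these probes were not above background in sclera and nearly nowhere in whole eye. The strand count for sclera minus retina went from 1 to 2 with normexp, quantile normalisation, the series value table and on slide 2 alone, where miR-199a also passed (-1.55, -0.41, -1.10 and -0.28), and to 0 among miRNAs detected on every array. For differences of arm effects, whole eye minus sclera went from 0 to 1 on slide 3 alone, with a floor 4 times lower and with array weights. Whole eye minus retina went to 2 on slide 3 alone and 1 with phenotype-field arms, where miR-214-5p turned to 5.03. Retina minus sclera went to 2 on slide 3 alone and 1 with array weights. Leaving out each array in turn, counts ran from 1 to 1 in whole eye and for both strand results, from 0 to 1 in retina and the 3 arm-effect differences, 0 to 0 in sclera and 5 to 5 for tissues. Each rise to 1 came without retina titled control replicate 1. With a replicate block the counts were those of the main fit (miR-214-5p in whole eye 1.95, adjusted p = 8.6e-05; strand 1.83, adjusted p = 0.0081), and all miRNAs called in whole eye numbered 45 against 35. Whether equal numbers mark eyes of the same mouse is not stated. Same-numbered deviations correlated from -0.22 to 0.49 in whole eye, -0.22 to 0.64 in retina and -0.37 to -0.10 in sclera. Differently numbered arrays in whole eye ran from -0.44 to 0.46. These values do not settle the pairing, and none was used in the main fit. Scaling moved the background: sclera minus retina had a median of -0.81 with 130 higher and 250 lower, 0.85 with normexp (245 and 68), and 0.05 with the series table (191 and 163); sclera minus whole eye was 316 and 49 with normexp against 131 and 171; and quantile normalisation gave 32 higher and 64 lower in whole eye arms. In sclera minus retina the 4 scleral members kept their direction and call in each alternative that tested them. Over all miRNAs tested, calls between whole-eye arms were 22 with normexp, 15 among those detected on every array and 11 on slide 3, and calls between retina arms were 64 with array weights and at most 55 with 1 array left out. Calls in the 3 arm-effect differences ran up to 25, 31 and 82 with 1 array left out. Except where a value above shows it, the cause of these changes was not tested. Depth on an array is signal over background, which limits miR-214-5p in whole eye and miR-214-3p in retina.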
